A study of Mus musculus with 6 samples.

Results

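The clustered protocadherins are cell adhesion genes that lie side by side in 3 clusters, alpha, beta and gamma. They were taken here as every gene symbol made of Pcdh, a cluster letter (a, b or g), an optional family letter and a number, and 58 of the 24421 genes counted in these RNA-seq data met that rule. Of these, 14 belonged to the alpha cluster, 22 to the beta cluster and 22 to the gamma cluster. For each isoform the share of its cluster's reads was computed in each of 6 libraries, and the level in cells with changed Dot1l was set against the level in the matched control.

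The study asked what Dot1l, a histone methyltransferase of histone H3, does to the transcriptome of blood and lymphatic endothelial cells (BECs and LECs). The skin cells of E15.5 mouse embryos were those left after removal of F4/80, CD45 and Lyve1 positive cells. A figure legend of the study also lists CD31 as a positive marker for isolating BECs, which its methods text does not mention. The embryos were either Tie2-Cre(+);Dot1l 2f/2f (cKO BECs) or littermates without Cre, Tie2-Cre(−);Dot1l 2f/2f (Cont BECs). Both genotypes thus carried the floxed allele, and the control is labelled wild type in the sample records. Tie2-Cre is active in endothelium and also in cells of the blood lineage, and each skin library held pooled RNA of 2 to 3 embryos. Cultured cells were a mouse embryonic yolk sac BEC line and mouse embryonic dermal LECs, each library made from a few flasks. They were transduced with a lentivirus that brings dCas9-VP64 to the Dot1l promoter (OE-BECs, OE-LECs) or with the empty virus (Cont BECs, Cont LECs). Both were then sorted for the virus's green fluorescence. Each condition had 1 library, so no comparison had a replicate check and no p-value is given. The intervals below are exact 95% intervals (Clopper-Pearson) on the reads and cover counting error only.

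In the vertebrate genome each clustered protocadherin isoform has its own promoter and its own large first exon, which encodes the extracellular and transmembrane parts. In the alpha and gamma clusters that exon is spliced to constant exons common to the whole cluster, whereas a beta gene stands alone. The proteins bind the same isoforms on a facing cell, and the clusters are known best from neurons, where each cell switches on its own combination of isoforms, with promoters chosen through CTCF and cohesin. The C-type isoforms at the end of the alpha and gamma clusters are known to be used more constantly than the others.

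The clusters lay on chromosome 18 (GRCm38, the build also called mm10) on the plus strand. The alpha genes spanned 36930184 to 37187661, with a position for 13 of the 14, the beta genes spanned 37264938 to 37524479, and the gamma genes spanned 37661793 to 37841873. In the annotation the alpha and gamma gene models overlapped through their constant exons, and Pcdhgb8 was listed as a polymorphic pseudogene. Sequence repeated between members was limited outside the constant exons. The median share of 75-base windows of an isoform's own exons that recurred in another member was 7.42% in the alpha, 0.945% in the beta and 0% in the gamma cluster, and the highest gamma value was 13.2%, for Pcdhgb1. How reads in constant exons were assigned is not given in the sources used here. Pcdhga8 had 0 reads in both LEC libraries while the gamma cluster as a whole had 6214 and 7457, so constant-exon reads were not given to every isoform.

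Library totals ran from 8863349 to 31032461 reads. Of the 58 isoforms, 44 exceeded 3 reads, taken as the floor of a library, in skin Cont BECs, 39 in cKO BECs, 40 in cultured Cont BECs, 39 in OE-BECs and 33 in each LEC library. Dot1l itself had 762 reads in skin Cont BECs and 944 in cKO BECs, a log2 ratio of -0.07 (95% interval -0.21 to 0.07), and a count over the whole gene does not test the floxed part. Dot1l had 1972 and 4208 reads in Cont BECs and OE-BECs (log2 ratio 1.48) and 2490 and 6720 reads in Cont LECs and OE-LECs (1.20). All 12 pan-endothelial markers exceeded the floor in every library. The LEC libraries had 0 reads of Prox1 and of Pdpn, which define lymphatic endothelium, while Lyve1 had 52184 and 60898. The skin libraries, sorted as Lyve1 and CD45 negative, had 9105 and 19959 reads of Lyve1, 1304 and 883 of Prox1 and 1206 and 2340 of Ptprc, which encodes CD45, in Cont and cKO. They also held markers of other cells, namely fibroblasts and pericytes at 3072 and 2295 counts per 1e+06 reads (CPM) in Cont and cKO, macrophages at 3430 and 5204 CPM, Schwann cells at 66.6 and 99.9 CPM and keratinocytes at 118 and 222 CPM. In the cultured libraries the same lists reached at most 23.9, 93.8, 4.52 and 8.89 CPM. Melanocyte markers stood at 47.7 and 71.2 CPM in Cont and cKO skin BECs and at most 9.61 in culture. Neuronal markers went the other way, at 131 and 122 CPM in the skin pair and 277 to 417 CPM in culture, where Nefl alone gave 276 to 416 CPM. In such bulk RNA fewer cells of a type and less RNA per cell cannot be told apart.

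All 6 libraries held reads of the beta and gamma clusters, and the alpha cluster was close to silent. Summed alpha reads were 12 in skin Cont BECs, 54 in cKO BECs, 3 in cultured Cont BECs beside 6 in OE-BECs, and 1 in Cont LECs beside 0 in OE-LECs. Summed beta levels were 135, 59.2, 138, 98.9, 150 and 127 CPM in the same order. Summed gamma levels were 336, 323, 206, 219, 238 and 240 CPM in that order. The cKO library therefore stood lowest in the beta cluster, below its control and below all cultured libraries, while the skin pair stood highest in the gamma cluster.

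**Figure D1:**
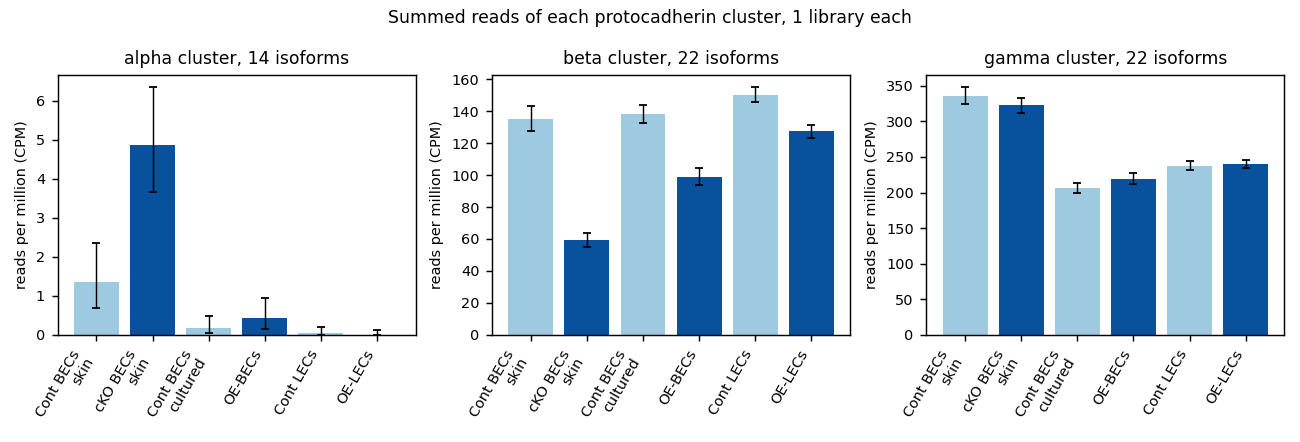
Summed reads of the alpha, beta and gamma isoforms in CPM (linear axes from 0, one panel per cluster) in the 6 libraries, 1 bar per library, light for controls and dark for changed Dot1l, with exact 95% counting intervals. The beta bar of cKO BECs (59.2 CPM) is the lowest of its panel, and the alpha bars reach 4.87 CPM at most.

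Among the alpha isoforms Pcdhac2, a C-type isoform, had the most reads in both skin libraries, with 58.3% of the 12 alpha reads in Cont BECs. Pcdhac2 had 7 reads in skin Cont BECs, 54 in cKO BECs, 0 in cultured Cont BECs, 3 in OE-BECs and 0 in both LEC libraries, so it was high in the cKO library alone. In cKO BECs it was 5.94-fold higher (log2 ratio 2.57, 95% interval 1.43 to 3.95), and it made up all 54 alpha reads of that library. Pcdhac1, the other C-type alpha isoform, had 1 read in skin Cont BECs and 0 in every other library. No other alpha isoform exceeded 3 reads in any library.

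Pcdhac2 met the study's rule for a changed gene, which asks for at least 5 normalized reads in the higher skin library (at least 3 for cultured cells) and a difference of more than 3-fold. It was the only one of 43 members able to meet it that was called higher in cKO BECs, against 5.17% of all genes. In OE-BECs the rule was met at 0 against 3 reads, which is at the floor and gives no fold. Schwann cell markers moved the same way as Pcdhac2 in the skin pair, with 9 of 10 higher in cKO BECs (median log2 ratio 0.59) and Sox10 at 29 and 64 reads. Other lists did so too, with keratinocyte markers 5 higher and 2 lower (median 1.13) and macrophage markers 7 of 7 higher (0.58). Fibroblast and pericyte markers went the other way, with 11 of 12 lower. Of the 12 neuronal markers, 8 exceeded the floor in either skin library, of which 5 were higher and 3 lower in cKO BECs (median log2 ratio 0.78). Elavl4, with 2 and 15 reads, was the 1 neuronal marker called higher, and Rbfox3 had 18 and 49 reads (1.07, 0.26 to 1.93). Gap43, with 725 and 879 reads (-0.10), and Stmn2, with 162 and 139 (-0.60), did not share that direction, and Snap25 had 0 reads in both. Whether these cells had a part in the Pcdhac2 reads was not tested.

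Within the beta cluster the reads came mostly from the far end. In the order of the genes, Pcdhb14 to Pcdhb22 held 87.8% of beta reads in skin Cont BECs, 86.6% in cKO BECs, 87.5% in cultured Cont BECs beside 92.4% in OE-BECs, and 90.1% in Cont LECs beside 92.1% in OE-LECs. This division at Pcdhb14 was chosen after the values were seen. Pcdhb1, the first gene, had 0 reads in the skin libraries, in the cultured BECs and in the LECs.

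Pcdhb16 had the most beta reads in every library. Its share of beta reads was 17.04% in skin Cont BECs (95% interval 14.95 to 19.3), 14.6% in cKO BECs, 24.4% in cultured Cont BECs beside 23.7% in OE-BECs, and 29.8% in Cont LECs beside 31.0% in OE-LECs (29.6 to 32.5). It thus took a larger part in the cultured cells than in skin, and the LEC intervals lay above those of the other libraries. Reads grow with the length of a transcript, and when shares were computed on reads per kb of exons not shared with another member, Pcdhb16 still led in 4 libraries. On that scale Pcdhb20 led in cKO BECs at 16.0%, with Pcdhb16 at 13.1%, and Pcdhb15 led in cultured Cont BECs at 21.7%, with Pcdhb16 at 20.5%.

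Pcdhb17 was the second by reads in 5 of the libraries and the third in cKO BECs. Its beta share was 13.2% in skin Cont BECs, 11.4% in cKO BECs, 14.1% in cultured Cont BECs beside 19.5% in OE-BECs, and 12.8% in Cont LECs beside 15.1% in OE-LECs. Pcdhb15 separated skin from culture, at 4.18% and 4.57% of beta reads in the skin pair against 10.5% to 13.8% in the 4 cultured libraries. Pcdhb19 did the reverse, at 11.5% and 10.7% in skin against 3.34% to 4.64% in culture. The intervals of the skin and cultured libraries were apart for both isoforms.

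**Figure D2:**
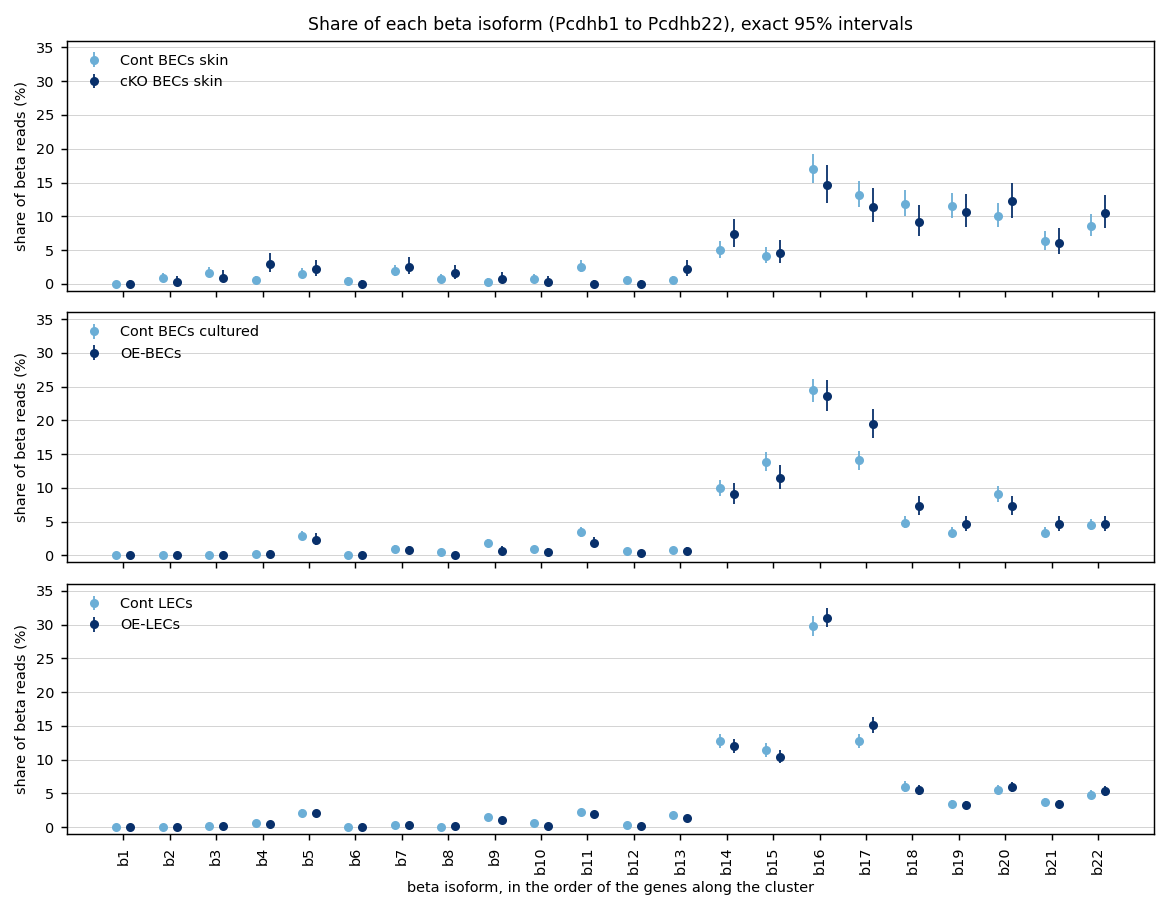
Share of each beta isoform, in gene order along the cluster, in the beta reads of a library (%, linear axis), with exact 95% intervals, one panel per pair of libraries (light, control, dark, changed Dot1l). Pcdhb14 to Pcdhb22 hold most of the reads in every panel, and Pcdhb16 is the highest point in each library.

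The evenness of use was summarised by the effective number of isoforms, the number of equally used isoforms that would give the same sum of squared shares. For the beta cluster it was 9.86 in skin Cont BECs, 10.6 in cKO BECs, 7.92 in cultured Cont BECs beside 7.46 in OE-BECs, and 6.80 in Cont LECs beside 6.35 in OE-LECs. Beta use was therefore most even in skin, and the values of each control and its changed library lay closer to each other than to those of the other pairs.

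In cKO BECs nearly the whole beta cluster was lower than in Cont BECs. Summed beta reads were 1197 in Cont BECs and 656 in cKO BECs, 2.37-fold lower after normalization (log2 ratio -1.25, 95% interval -1.39 to -1.11). Of the 21 beta isoforms above the floor in either library, 19 were lower in cKO BECs, and for 15 the interval of the log2 ratio lay wholly below 0, where 24.1% of all genes did so. The median beta log2 ratio was -1.28 (a pseudocount of 1 on normalized counts), beside 0.01 over all genes above the floor. By the rule of fold and minimum, 7 of the 20 isoforms that could be called were lower in cKO BECs (35.0%), against 2.41% of all genes. Such calls are more frequent among weak genes, and among genes under 100 normalized counts 5.78% were called lower, while 6 of the 14 beta isoforms in that range were.

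Among the strongly used isoforms, Pcdhb16 had 204 reads in Cont BECs and 96 in cKO BECs (log2 ratio -1.47, -1.83 to -1.11). Pcdhb18 had 142 and 60 (-1.62, -2.08 to -1.18), and Pcdhb17 had 158 and 75 (-1.45, -1.87 to -1.05). All 3 were thus lower by a like amount, yet only Pcdhb18, at 3.08-fold, passed the 3-fold rule, and Pcdhb16 at 2.76-fold and Pcdhb17 at 2.74-fold stayed under it. Pcdhb19 had 138 and 70 reads (-1.36), Pcdhb20 had 121 and 80 (-0.97), and Pcdhb22 had 103 and 69 (-0.96).

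The weaker beta isoforms were less uniform. Pcdhb11 had 30 reads in Cont BECs and 0 in cKO BECs, at least 9.93-fold lower, although cKO BECs had the deeper library. Pcdhb2, Pcdhb3, Pcdhb6, Pcdhb10 and Pcdhb12 were also called lower, on 5 to 19 reads in Cont BECs and 0 to 6 in cKO BECs. Pcdhb4, with 7 and 19 reads, and Pcdhb13, with 6 and 14, were higher, at log2 ratios of 1.06 (-0.25 to 2.56) and 0.84 (-0.63 to 2.51) whose intervals held 0. Pcdhb8, with 9 and 10 reads (-0.23, -1.68 to 1.25), and Pcdhb9, with 4 and 5 (-0.06, -2.27 to 2.28), lay near 0. The intervals of Pcdhb5 (-0.74, -1.86 to 0.35) and Pcdhb7 (-0.84, -1.86 to 0.16) held 0 too.

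Although most isoforms were lower together, some shares inside the beta cluster differed. Share intervals were wide in the smaller beta total of cKO BECs, so overlap does not show that a share was unchanged. The share intervals of the skin pair were apart for 3 of the 22 isoforms, which were Pcdhb4 (0.585% and 2.90%), Pcdhb11 (2.51% and 0%) and Pcdhb13 (0.501% and 2.13%). The summed group of Pcdhb1 to Pcdhb13 had a log2 ratio of -1.11 (-1.51 to -0.72) and that of Pcdhb14 to Pcdhb22 one of -1.27 (-1.42 to -1.12), with overlapping intervals. Pan-endothelial markers were lower in the same library in 10 of 12 cases (median log2 ratio -0.66), with Cdh5, the endothelial cadherin, at -0.70. Fibroblast and pericyte markers were lower in 11 of 12 cases (median -0.43), and macrophage markers were higher in 7 of 7 (median 0.58). The part of these shifts in the lower beta level was not tested.

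In cultured cells with more Dot1l the beta cluster was lower as well, by a smaller amount. Summed beta reads were 2443 in Cont BECs against 1378 in OE-BECs (log2 ratio -0.44, -0.54 to -0.35). They were 3927 in Cont LECs against 3952 in OE-LECs, whose library was deeper (-0.22, -0.29 to -0.16). The beta sum thus lay below its control in all 3 comparisons, in cKO BECs as well as with induced Dot1l. Pan-endothelial markers were mostly lower in the same libraries too. In OE-BECs 11 of 12 were lower (median log2 ratio -0.33), and in OE-LECs 10 of 12 (median -0.24). Whether the lower beta sums are particular to the cluster was not tested.

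In OE-BECs the sum of Pcdhb1 to Pcdhb13 had a lower ratio than that of Pcdhb14 to Pcdhb22, while the ratios of single isoforms overlapped. Pcdhb1 to Pcdhb13 summed to 305 reads in Cont BECs against 105 in OE-BECs (log2 ratio -1.16, -1.49 to -0.83), and 9 of the 9 above the floor were lower. Pcdhb14 to Pcdhb22 summed to 2138 and 1273 reads (-0.37, -0.47 to -0.26), with 5 lower and 4 near 0. The intervals of these sums were apart, at a division chosen after the values were seen. Pcdhb15 (-0.71) and Pcdhb20 (-0.75) of the second group were lower than Pcdhb13 (-0.62) and Pcdhb4 (-0.20) of the other, within their intervals. Pcdhb11 had 84 and 26 reads (-1.31, -2.00 to -0.66) and Pcdhb9 had 44 and 10 (-1.75, -2.91 to -0.74). By contrast Pcdhb17 had 344 and 269 reads (0.03, -0.21 to 0.26) and Pcdhb18 had 119 and 100 (0.13, -0.27 to 0.53).

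As those 2 isoforms held their level while most others were lower, their shares were larger in OE-BECs, 14.1% and 19.5% for Pcdhb17 and 4.87% and 7.26% for Pcdhb18, with intervals apart. No other beta share had intervals apart in this pair. Pcdhb19 and Pcdhb21 also held their level (0.03 each), and their shares, 3.36% and 4.64% for each, had overlapping intervals. Of 18 isoforms that could be called, 2 were called lower, Pcdhb9 and Pcdhb8 (11 reads and 0, at least 1.92-fold lower), which is 11.1% against 5.27% of all genes. For 8 of the 18 above the floor the interval lay below 0, against 28.1% of all genes.

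OE-LECs differed least from their control. Of 19 beta isoforms above the floor, 17 were lower, mostly by little, and for 7 the interval lay below 0, against 20.5% of all genes. Pcdhb10, with 24 reads in Cont LECs against 5 in OE-LECs, was 5.63-fold lower (log2 ratio -2.49, -4.24 to -1.08) and was the 1 beta isoform called of 20 (5%), against 2.09% of all genes. Pcdhb10 was lower in OE-BECs too, at 23 and 8 reads, with an interval of -2.51 to 0.07. Here Pcdhb1 to Pcdhb13 summed to a log2 ratio of -0.55 (-0.77 to -0.33) and Pcdhb14 to Pcdhb22 to -0.19 (-0.26 to -0.12), with intervals apart. As this division was chosen after the values were seen, OE-LECs are no separate check of the OE-BECs difference.

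**Figure D3:**
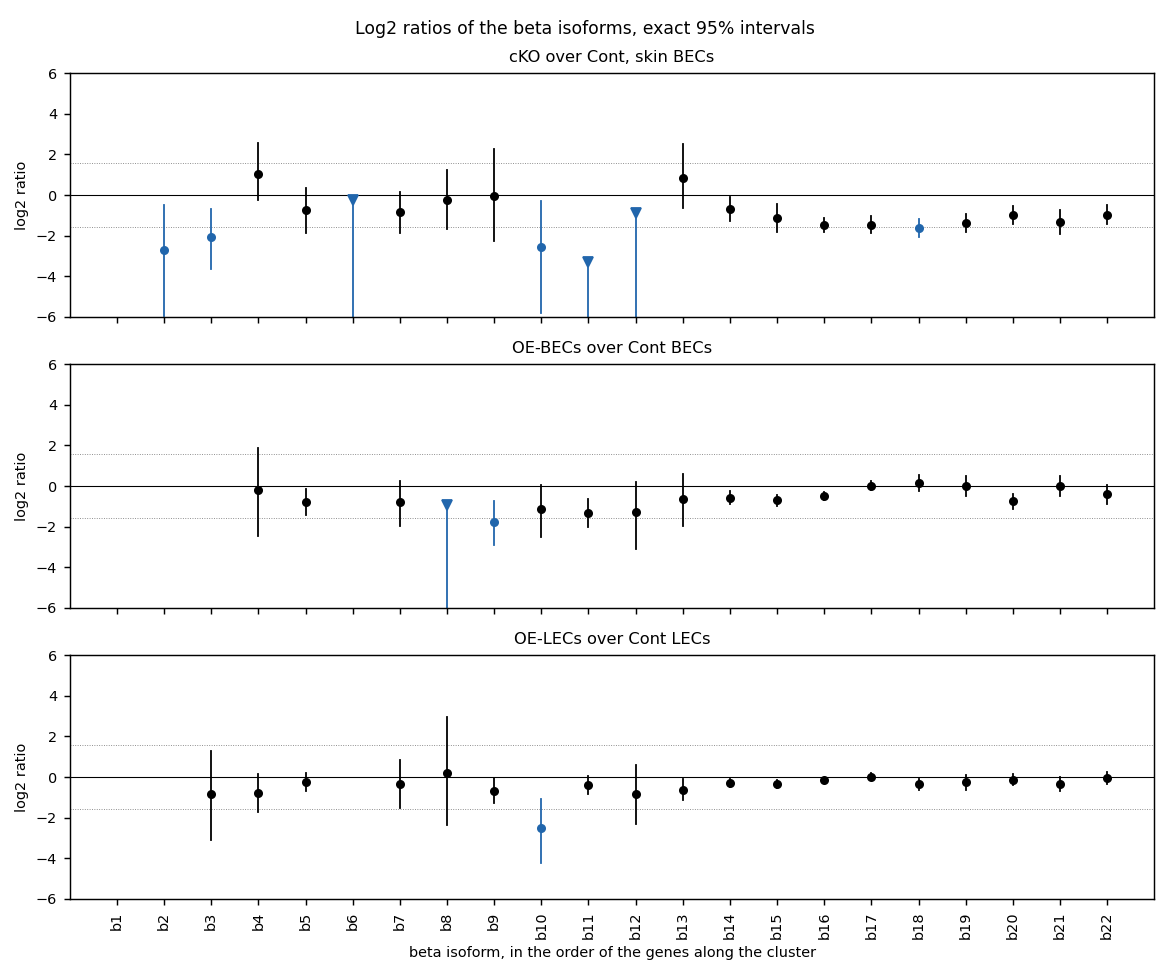
Log2 ratio of normalized counts, changed Dot1l over control, for each beta isoform in gene order, one panel per comparison, with exact 95% intervals, dotted lines at 3-fold and coloured points for isoforms called by the rule of fold and minimum. Triangles mark the interval's upper limit for isoforms with 0 reads in the changed library, isoforms at or under 3 reads in both libraries have no point, and 19 of 21 isoforms lie below 0 in the cKO panel.

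Use of the gamma cluster differed most between skin and cultured cells. Pcdhgc3, a C-type isoform, had the most gamma reads in every library, with shares of 31.4% in skin Cont BECs, 27.4% in cKO BECs, 56.4% in cultured Cont BECs beside 47.7% in OE-BECs, and 63.1% in Cont LECs beside 62.5% in OE-LECs. On reads per kb of unshared exons it also led in every library, at 27.7%, 24.0%, 50.2%, 42.0%, 56.7% and 56.0%. The effective number of gamma isoforms was 8.03, 9.52, 2.86, 3.85, 2.30 and 2.34 in the same order. Gamma use was thus spread over many isoforms in skin and concentrated on few in culture.

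The 5 leading gamma isoforms by reads were the same in cultured Cont BECs and in Cont LECs. Besides Pcdhgc3, the leading isoforms of Cont LECs were Pcdhgb8, Pcdhgb1, Pcdhgb6 and Pcdhga1. These 5, picked by their reads in Cont LECs after the values were seen, held 97.5% of gamma reads in Cont LECs against 97.4% in OE-LECs, and in libraries that did not enter the choice they held 88.9% in cultured Cont BECs, 78.7% in OE-BECs, 42.4% in skin Cont BECs and 41.3% in cKO BECs. Pcdhgb8 took 12.1% and 9.85% of gamma reads in cultured Cont BECs and OE-BECs and 13.9% and 12.95% in Cont LECs and OE-LECs, but 2.52% and 2.26% in the skin pair. Pcdhgb1 took 8.63% to 10.8% in culture and 2.11% and 2.15% in skin, and some of its exons share sequence with another member.

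The remaining 17 gamma isoforms summed to 194 CPM in skin Cont BECs, 190 in cKO BECs, 23.01 in cultured Cont BECs beside 46.7 in OE-BECs, and 5.97 in Cont LECs beside 6.22 in OE-LECs. Pcdhgb7 and Pcdhga11 followed Pcdhgc3 in skin Cont BECs, at 217 and 169 reads or 7.28% and 5.67% of gamma reads. Pcdhgb7 had 29 reads in cultured Cont BECs and 1 in Cont LECs, and Pcdhga11 had 12 and 2. The number of gamma isoforms above the floor was 22 in both skin libraries and in both cultured BEC libraries, 15 in Cont LECs against 14 in OE-LECs, although the LEC libraries were the deepest. The skin libraries came from uncultured E15.5 skin and another sort, and held the fibroblast, macrophage and Schwann cell markers given above. No embryonic day is given for the cultured embryonic cells. The sources of the extra gamma isoforms cannot be told apart.

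**Figure D4:**
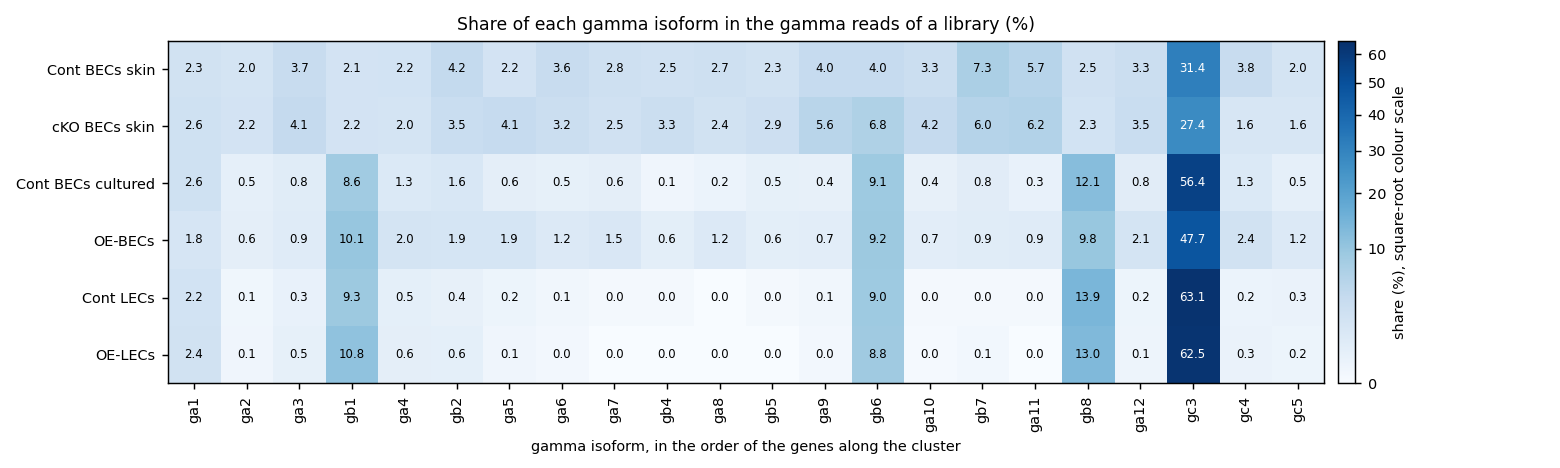
Share of each gamma isoform, in gene order along the cluster, in the gamma reads of each library (%, printed in the cell, square-root colour scale), 1 row per library. The skin rows spread over all 22 isoforms, and the cultured rows hold most reads in Pcdhgc3, Pcdhgb8, Pcdhgb6 and Pcdhgb1.

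The distance between the isoform profiles of a pair of libraries was taken as the percentage of reads that would have to be moved to another isoform to make them alike. For the gamma cluster it was 46.5% between skin and cultured Cont BECs, 55.2% between skin Cont BECs and Cont LECs, and 9.10% between cultured Cont BECs and Cont LECs. It was 10.2% between skin Cont and cKO BECs, 11.8% between Cont BECs and OE-BECs and 2.06% between Cont LECs and OE-LECs. The beta cluster gave the same order of magnitude within pairs, 13.2%, 10.5% and 4.55%, and 27.3% between skin and cultured Cont BECs. The distances within each pair were thus smaller than those between skin and culture. Counting error adds to every such distance, most of all in the smaller cKO beta total.

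In cKO BECs the gamma cluster as a whole was close to its control. Summed gamma reads were 2979 and 3577, a log2 ratio of -0.11 (-0.18 to -0.04). Of 22 isoforms, 10 were higher and 12 lower, the median log2 ratio was -0.06, and none was called, beside the 5.17% of all genes called higher and 2.41% called lower. The interval lay above 0 for 3 of the 22 isoforms, against 22% of all genes, and below 0 for 4, against 24.1% of all genes. The beta and gamma clusters thus gave different ratios from the same pair of libraries, -1.25 and -0.11, with intervals apart.

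The exceptions were few. Pcdhgc4, a C-type isoform, had 113 reads in Cont BECs and 58 in cKO BECs, 2.53-fold lower (log2 ratio -1.34, -1.82 to -0.87), and its gamma share was 3.79% and 1.62%. Pcdhgc3 had 936 and 981 reads (-0.31, -0.44 to -0.18) and Pcdhgc5 had 60 and 57 (-0.45, -1.001 to 0.10), so that the summed C-type isoforms had a log2 ratio of -0.39 (-0.52 to -0.27) while those of the gamma-a and gamma-b families were 0.05 and -0.01. Higher in cKO BECs were Pcdhga5, at 65 and 145 reads (0.78, 0.35 to 1.22), Pcdhgb6, at 119 and 243 (0.65, 0.33 to 0.98), and Pcdhga9, at 119 and 199 (0.36, 0.03 to 0.70). The share intervals were apart for these 3 and for Pcdhgc3 and Pcdhgc4. The C-type alpha isoform Pcdhac2 was thus higher in the library where the C-type gamma sum was lower. Without the C-type isoforms the gamma sum had a log2 ratio of 0.03 (-0.06 to 0.12).

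In OE-BECs the weakly used gamma isoforms were higher, and the sum of the leading ones lay near its control. Summed gamma reads were 3652 in Cont BECs against 3056 in OE-BECs, which after normalization was a log2 ratio of 0.13 (0.06 to 0.20). The 17 isoforms outside the 5 leading ones summed to 407 and 651 reads, 2.09-fold higher (log2 ratio 1.06, 0.88 to 1.24), and 17 of 17 were higher. The 5 left out also led in Cont BECs, the control of this ratio, so the 17 are isoforms low in that control. Their sum was not set against genes of a like level. Weak genes in general were also called higher more often in OE-BECs, 23% of those under 100 normalized counts against 8.02% of all genes. The 5 leading isoforms summed to 3245 and 2405 reads, a log2 ratio of -0.05 (-0.13 to 0.03). By family the log2 ratio was 0.91 (0.70 to 1.11) for gamma-a, 0.14 (0.02 to 0.27) for gamma-b and -0.06 (-0.15 to 0.04) for the C-type sum.

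The 3 highest ratios belonged to Pcdhgb4, Pcdhga8 and Pcdhga5, which lie close to each other in the middle of the cluster. Pcdhga5 had 21 reads in Cont BECs against 58 in OE-BECs (log2 ratio 1.85, 1.11 to 2.64), and Pcdhga8 had 9 and 37 (2.42, 1.35 to 3.66). Between them lie Pcdhga6, with 17 and 37 reads (1.505), Pcdhga7, with 21 and 45 (1.48), and Pcdhgb4, with 4 and 19 (2.63, 1.04 to 4.65). Towards the end of the cluster Pcdhga11 had 12 and 29 reads (1.66, 0.64 to 2.76) and Pcdhga12 had 30 and 64 (1.48, 0.83 to 2.15). The C-type isoforms Pcdhgc4, at 46 and 73 reads (1.05, 0.50 to 1.61), and Pcdhgc5, at 19 and 36 (1.30, 0.46 to 2.19), were higher too, while Pcdhgc3 had 2060 and 1459 (-0.11, -0.21 to -0.02). This stretch of neighbours was picked out after its values were seen.

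By the rule of fold and minimum, 4 of 22 gamma isoforms were called higher (18.2%), Pcdhga5, Pcdhgb4, Pcdhga8 and Pcdhga11, against 8.02% of all genes. All were weak, and among genes under 100 normalized counts 23% were called higher in OE-BECs, so 4 of 18 gamma isoforms in that range is near the background of weak genes. The interval of the log2 ratio lay above 0 for 11 of 22, against 27% of all genes, and below 0 for 1, Pcdhgc3. The median gamma log2 ratio was 0.80, beside 0.00 over all genes above the floor. Neither this median nor the count of intervals was set against genes of a like level, and 18 of the 22 gamma isoforms were under 100 normalized counts. Share intervals were apart for 11 isoforms, of which 9 had a larger share in OE-BECs and Pcdhgc3 (56.4% and 47.7%) and Pcdhgb8 (12.1% and 9.85%) a smaller one.

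In OE-LECs the gamma cluster did not show this. Summed reads were 6214 and 7457 (log2 ratio 0.03, -0.02 to 0.08), and the 17 weaker isoforms had 156 and 193 reads (0.08, -0.24 to 0.39). That interval lay apart from that of OE-BECs. The 17 were set apart by low reads in Cont LECs, the control here, so this difference is a description and not a test. Pcdhgb1, with 577 and 804 reads (0.25, 0.09 to 0.40), was the 1 isoform whose interval lay above 0, against 23.1% of all genes, and its share was 9.29% and 10.8%. Pcdhgb7, at 1 and 4 reads, was the 1 call of 16 (6.25%), against 2.77% of all genes, and its interval of -1.57 to 7.39 held 0. Pcdhga5 had 11 and 8 reads, Pcdhga6 had 4 and 3, and Pcdhga7, Pcdhgb4 and Pcdhga8 had 0 or 1, so the stretch that was higher in OE-BECs had few reads in LECs to compare.

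**Figure D5:**
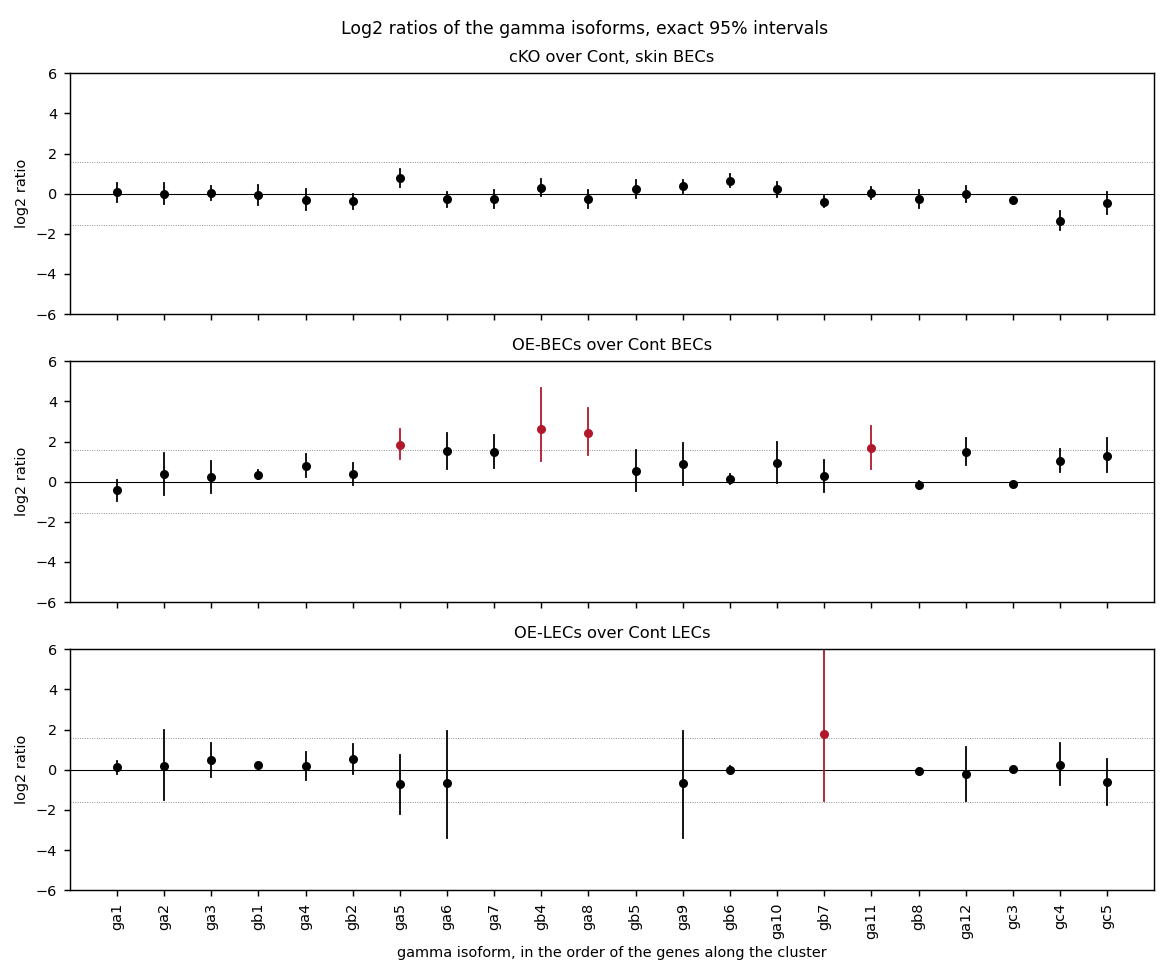
Log2 ratio of normalized counts, changed Dot1l over control, for each gamma isoform in gene order, one panel per comparison, with exact 95% intervals, dotted lines at 3-fold and coloured points for isoforms called by the rule of fold and minimum. In the OE-BECs panel 19 of 22 points lie above 0, isoforms at or under 3 reads in both LEC libraries have no point, and the interval of gb7 in the LEC panel runs beyond the axis.

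Genes known to act at clustered protocadherin promoters were counted in the same way. The 29 listed included CTCF, cohesin and its loader, DNA methyltransferases and demethylases, and silencers such as Smchd1 and Setdb1. Of these, 28 were in the table and above the floor, and 0 were called in any comparison. Among all genes the called share per direction ran from 2.09% (lower, OE-LECs) to 8.02% (higher, OE-BECs), so few calls were likely among 28. They were not set against genes of a like level, so the lack of calls does not set them apart. Of the 28, 21 were lower in cKO BECs, 15 in OE-BECs and 22 in OE-LECs, with median log2 ratios of -0.10, -0.05 and -0.05. Among the 6 of them with the most reads over all libraries, the log2 ratio in OE-BECs was 0.50 for Dnmt1, the maintenance DNA methyltransferase, 0.36 and 0.23 for the cohesin subunits Rad21 and Smc1a, 0.34 for Hnrnpk, 0.16 for Trim28 and -0.05 for Pds5a. Other members went the other way. Tet2 and Tet3, enzymes that oxidise methylated cytosine, had 2435 and 962 reads (-0.96, -1.07 to -0.85) and 4036 and 2005 reads (-0.63, -0.70 to -0.55) in Cont BECs and OE-BECs, and the DNA methyltransferase Dnmt3a had 1236 and 625 (-0.60, -0.74 to -0.46), all 3 named after their values were seen.

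The non-clustered protocadherins are related adhesion genes outside the 3 clusters. Pcdh1, Pcdh12 and Pcdh17 had 1223, 1579 and 2049 reads in skin Cont BECs and were lower in cKO BECs at log2 ratios of -0.79, -0.77 and -0.70. They were lower in OE-BECs as well, at -0.92, -1.19 and -1.34. In Cont LECs and OE-LECs they differed less, at 216 and 189 CPM for Pcdh1, 98.1 and 87.1 for Pcdh12, and 33.3 and 33.1 for Pcdh17. Pcdh7 had 1136 reads in Cont BECs against 1919 in OE-BECs (1.14, 1.03 to 1.25), and 2013 and 5108 in Cont LECs and OE-LECs (1.11, 1.04 to 1.19), and so was higher in both. It was also higher in cKO BECs, at 15.3 CPM in skin Cont BECs and 23.7 in cKO BECs. Pcdh19 went both ways, at 75.4 and 42.9 CPM in Cont BECs and OE-BECs and 20.8 and 48.0 CPM in Cont LECs and OE-LECs. Of the 12 listed, 1 was called, Pcdh15 in OE-BECs on 2 and 5 reads, in a comparison where 8.02% of all genes and 23% of those under 100 normalized counts were called higher.

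Of 20 listed partners and processing enzymes of the clustered proteins (the kinases Ptk2 and Fyn, the sheddase Adam10, gamma-secretase and the WAVE complex), 0 were called in cKO BECs and in OE-LECs. In these comparisons 5.17% and 2.77% of all genes were called higher and 2.41% and 2.09% lower. In OE-BECs 2 were called higher, Ptk2b on 3 and 14 reads and Cyfip2 on 0 and 5, near the same background of 8.02% of all genes and 23% of weak ones. Adam10, which cleaves gamma protocadherins at the membrane, had 3541 and 3148 reads in the skin pair (log2 ratio -0.55, -0.62 to -0.48) and 4429 and 2557 in Cont BECs and OE-BECs (-0.41, -0.48 to -0.34). Among 9 neighbouring genes and classical cadherins 0 were called in any comparison, beside the shares of all genes given above. The cadherin Cdh13 had 762 and 384 reads in the skin pair (-1.37, -1.55 to -1.19). Taf7, a subunit of the general transcription factor TFIID whose gene lies between the beta and gamma clusters, had 257 reads in Cont BECs against 380 in OE-BECs (0.95, 0.71 to 1.18), 163 and 230 in Cont LECs and OE-LECs (0.27, -0.03 to 0.56) and 622 and 678 in the skin pair (-0.25, -0.41 to -0.09).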

How the data were processed

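RNA-seq of 6 libraries was analysed, 1 per condition. After a ScriptSeq v2 library preparation the authors trimmed reads with skewer, used STAR for alignment to mm10 and VERSE for counting, and deposited unnormalized counts per gene. The table held 24421 genes, and 4473 of them were at 0 throughout. The strand setting and the handling of reads in shared exons are not given in the sources used here. Members were symbols of the form Pcdh, cluster letter, optional family letter and number, and these and the lists of other genes were chosen with earlier results of these data known. Each control and its changed library were normalized with median-of-ratios size factors (DESeq2 1.42.0, R 4.3.3). A gene was called if its higher normalized count was at least 5 (skin) or 3 (culture) and more than 3 times the lower. Folds against 0 reads are lower bounds set at a floor of 3 reads or the nearer interval limit. Intervals are exact Clopper-Pearson 95% intervals (scipy 1.17.1), for counting error only, as amplified reads lacking molecular identifiers need not be separate molecules. Positions and exons came from GENCODE M21. Named in full were the 3 isoforms with the most reads of a cluster in each library, C-type isoforms and isoforms called with at least 20 reads, and, of the other lists, some of the 6 members with the most reads over all libraries. Isoforms, markers and other genes outside this rule were chosen after their values were seen. The code of the calling rule was run on simulated counts, which checks the code and not the calls. Alternatives were other size factors (all 6 libraries, TMM of edgeR 4.0.16, total counts), other minimums and folds, a pseudocount, shares per kb and sums without the leading or C-type isoforms.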

Additional observations from a re-analysis of the deposited data

How the results depend on the processing

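No paired analysis was possible because each condition has 1 library, and for the same reason no replicate could be left out. Of 138 recomputed values, 121 stayed within the main interval of a sum or within 1.5 times a main count or effective number, 16 moved and 1 reversed. The counts of called isoforms moved with the minimum and the fold. With a fold of more than 2, cKO BECs had 2 higher and 13 lower calls and OE-BECs had 10 and 5. With a minimum of 20, 3 were lower in cKO BECs, 1 was lower in OE-BECs and 0 were higher in OE-LECs. With no minimum, 12, 5 and 6 were lower in cKO BECs, OE-BECs and OE-LECs. The single higher call in OE-LECs, Pcdhgb7, was lost (0) with size factors over all 6 libraries, a minimum of 5 or a pseudocount of 1. The gamma sum in cKO BECs, -0.11, was -0.06 with total counts, with an interval (-0.13 to 0.01) that held 0, and -0.032 (-0.12 to 0.05) without Pcdhgc3 and reversed to 0.03 (-0.06 to 0.12) without the C-type isoforms. In OE-BECs it was 0.39 and 0.35 under these alternatives. The beta sums stayed within their main intervals under every alternative run. Shares per kb of all or of unshared exons, in place of shares of reads, lay outside the main interval in 46 of 72 values of single isoforms. Depth limits the weak isoforms most, and the floor of 3 reads stood at 0.0967 CPM in OE-LECs and 0.338 CPM in skin Cont BECs.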
